A study of Mus musculus with 15 samples.

Results

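The transcripts described here belong to 9 genes of the N-degron ubiquitin ligases and of the VCP machine that extracts ubiquitylated proteins: Ubr1, Ubr2, Ubr3, Ubr4 and Ubr7, then Vcp, Ufd1 and Nploc4, and the chaperone-linked ligase Stub1. They were chosen by symbol from 22524 genes in the count tables, and all 9 were among the 14989 genes that passed the filter on low counts. The libraries came from the brain cortex of C57BL/6 female mice, all 18 months old. There were 7 heterozygotes (Rps9 D95N / Rps9 WT), which carry an amino acid change in a small-subunit ribosomal protein, and 8 littermates with wild-type Rps9. The title of the series concerns error-prone protein synthesis, and the question addressed here is whether transcripts of enzymes that mark and extract faulty proteins differ between these genotypes. Not given in the sources used here are how the allele was made and which litter each mouse came from. Libraries are named by genotype and animal number.

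In the N-degron pathway, ubiquitin ligases called N-recognins bind proteins through destabilizing residues at the amino terminus and attach ubiquitin for degradation by the proteasome. VCP, an ATPase also known as p97, pulls ubiquitylated proteins out of complexes and membranes and unfolds them, and it meets many of these substrates through the adaptor pair Ufd1 and Nploc4. Stub1, also known as CHIP, ubiquitylates clients held by Hsp70 and Hsp90 chaperones, and inherited mutations of human VCP cause neurodegenerative disease.

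The 250 bases before the RefSeq transcription start (GRCm38.p6) are printed for Ubr4 and Nploc4. These 2 were picked after the motif search, because both were called higher in D95N and their windows share a motif. The call of Nploc4 is close to the threshold, as described below. The windows of Stub1, which also rose, and of Ufd1, the partner of Nploc4, are described without their letters. Both lie within the GENCODE M21 bounds of their own genes, as does that of Ubr4, and that of Nploc4 reaches slightly into its own gene. RefSeq and GENCODE place the start of Ubr4 at different positions, and the RefSeq one is used. Each reads 5′ to 3′ along the gene's own strand, and capitals mark matches to the 10 short motifs that were searched on both strands.
Ubr4, chr4:139380409-139380658 (+ strand): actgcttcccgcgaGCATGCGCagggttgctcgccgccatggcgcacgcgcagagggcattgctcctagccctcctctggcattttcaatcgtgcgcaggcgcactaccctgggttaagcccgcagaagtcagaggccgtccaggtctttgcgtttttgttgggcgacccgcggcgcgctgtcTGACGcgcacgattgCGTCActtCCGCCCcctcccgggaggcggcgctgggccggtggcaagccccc
Nploc4, chr11:120437701-120437950 (- strand): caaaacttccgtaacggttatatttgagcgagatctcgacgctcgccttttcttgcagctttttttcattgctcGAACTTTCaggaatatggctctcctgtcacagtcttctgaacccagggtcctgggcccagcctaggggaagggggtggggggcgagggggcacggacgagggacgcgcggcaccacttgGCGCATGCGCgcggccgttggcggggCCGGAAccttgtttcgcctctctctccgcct
The motif GCATGCGC, which NRF1 binds, was found in the windows of Ubr4 and Nploc4, where the 2 matches in Nploc4 overlap on opposite strands, and in 2.26% of all 32851 RefSeq promoter windows of this length. None of the other 7 members held it. The motif contains a CpG, and both windows are rich in CpG. Their ratios of observed to expected CpG were 0.983 for Ubr4 and 0.967 for Nploc4, against a median of 0.373 over all windows. How often windows of like composition hold the motif was not computed, so no shared regulation is read from it. The Sp1 box GGGCGG occurred 5 times in Stub1, 3 times each in Ubr3 and Ubr7, and 1 time each in Ubr4 and Ubr1. It was found in 32.7% of all windows, and Ubr1, Ubr3 and Ubr7 were not called. The ETS core CCGGAA occurred in Stub1 and Nploc4, in the uncalled Ufd1, Ubr1 and Ubr7 but not in Ubr4, and in 12.03% of all windows. Stub1 also held the E-box CACGTG, found in 6.02% of all windows, and Stub1, Nploc4 and Vcp, of which Vcp was not called, held the heat shock element core GAANNTTC, found in 6.69%. TGACG, the core of the cyclic AMP response element, occurred in Ubr4, Ufd1 and Vcp and in 17.8% of all windows. The window of Ufd1 held 44.8% G and C, against 67.6% for Ubr4, 67.2% for Stub1 and 60.4% for Nploc4, and against a median of 52.4% over all windows. These matches describe the letters of the windows, and binding was not measured.

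Total counts ran from 23349381 to 34052037 in D95N and from 28007441 to 34587082 in wild type (two-sided exact permutation test of the totals, p = 0.14). Each of the 9 genes had between 1193 and 9782 counts in every library. The tissue field of the labels names skeletal muscle while the series design names cortex. The 8 neuron markers summed to 7601 to 8874 CPM (counts scaled to library size, computed here) in D95N and 7683 to 8295 CPM in wild type, and the 7 skeletal muscle markers to 6.40 to 10.04 and 7.31 to 29.2 CPM. All 5 blood markers were lower in D95N (summed level 36.0 to 151 CPM against 74.1 to 292 CPM), as were 4 of 9 meningeal markers (87.6 to 178 against 157 to 215 CPM), while 4 of 8 neuron markers were higher and 2 lower. Of 6 astrocyte markers 1 was higher and 3 were lower (summed level 4321 to 5279 CPM in D95N and 4777 to 5223 CPM in wild type), and of 6 striatum markers 3 were lower (375 to 844 against 442 to 674 CPM). Of 6 microglia markers 1 was higher and of 5 endothelial markers 1 was lower, and no oligodendrocyte or choroid plexus marker passed. In bulk tissue fewer cells of a type and less RNA per cell cannot be told apart.

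Of the 9 genes, 3 rose in D95N and none fell: Ubr4 by 1.14-fold, Stub1 by 1.12-fold and Nploc4 by 1.11-fold (edgeR, adjusted p under 0.05). Without adjustment 5 were higher and 1, Ufd1, was lower at p under 0.05 in edgeR. Many genes reach that looser threshold: Ubr3, at an unadjusted p of 0.0392 in edgeR, ranked 5563 among the 14989 genes tested. Nothing is read from unadjusted counts, here or below. After adjustment, 26.8% of all genes tested passed in either direction, 15.2% as higher and 11.6% as lower. With 3 of 9 called, the count is close to that background, and nothing about the 9 as a list is read from it. Their median log2 fold change was 0.08, beside -0.01 over all genes tested. The members were therefore read 1 by 1.

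Ubr4 encodes a very large ligase that binds N-degrons and works together with the ligase Kcmf1. Its level in wild type was 186 CPM at the lowest, 198 at the median and 209.8 at the highest, and in D95N 216, 225 and 234 CPM. Each of the 7 D95N libraries exceeded each of the 8 wild-type libraries, the highest wild-type value being that of animal 24 and the lowest D95N value that of animal 50. Such a complete separation with D95N on top was seen for 1.81% of all genes tested and, among the 9, for Ubr4 alone. The means were 225 ± 7.19 CPM (SD, n = 7) and 198 ± 8.70 CPM (SD, n = 8), a log2 difference of 0.18 ± 0.03 (SE), with adjusted p = 0.000934 in edgeR. The gene (ENSMUSG00000066036) lies on chromosome 4 from 139352609 to 139489588 on the plus strand. Its exons share 109 bases, 0.61% of their length, with those of Emc1 on the same strand.

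Ubr1 and Ubr2 encode the closely related N-recognins that bind basic and bulky hydrophobic amino-terminal residues. Neither passed the test. Ubr1 stood at 78.3 to 84.1 CPM in wild type, with a median of 81.1, and at 73.0 to 86.8 CPM in D95N, with a median of 82.0. Ubr2 stood at 87.1 to 95.1 CPM with a median of 89.2 in wild type, and at 86.5 to 97.3 CPM with a median of 91.4 in D95N. In both genes the D95N range enclosed the wild-type range. The log2 fold change was 0.02 ± 0.03 (SE) for Ubr1, with a 95% interval from -0.06 to 0.09 and an adjusted p of 0.753 in edgeR. For Ubr2 it was 0.02 ± 0.03 (SE), with an interval from -0.04 to 0.09 and an adjusted p of 0.638. With library totals or upper-quartile factors in place of TMM both values turned slightly negative, so neither gene has a direction here.

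Ubr3 and Ubr7 share the UBR domain name but are not established as N-degron receptors; Ubr7 is a nuclear protein with a PHD finger. Ubr3 stood at 262, 271 and 286 CPM (lowest, median, highest) in wild type and at 263, 294 and 310.1 CPM in D95N, and its log2 fold change of 0.08 ± 0.04 (SE) missed the threshold (edgeR, adjusted p = 0.106). Ubr7 was at 44.6, 47.6 and 49.2 CPM in wild type and at 45.5, 50.04 and 56.0 CPM in D95N, a log2 difference of 0.12 ± 0.04 (SE), with adjusted p = 0.0617 in edgeR. The D95N libraries of animals 21, 50 and 4 carried the highest values of Ubr7, at 56.0, 55.8 and 54.8 CPM. Both genes passed the test with a correction for GC content and length, at log2 fold changes of 0.11 and 0.15 (edgeR, adjusted p = 0.0209 and 0.0145), where 28.8% of genes passed. Ubr7 also passed with DESeq2 (adjusted p = 0.0444), where 27.4% of genes passed, and it shares 6.5% of its exonic length with Gm20604 on the opposite strand, which itself rose by 0.32 ± 0.07 on the log2 scale (SE; edgeR, adjusted p = 0.00272). The counting is not stated to use strand, so reads over such overlaps cannot be told apart.

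**Figure D1:**
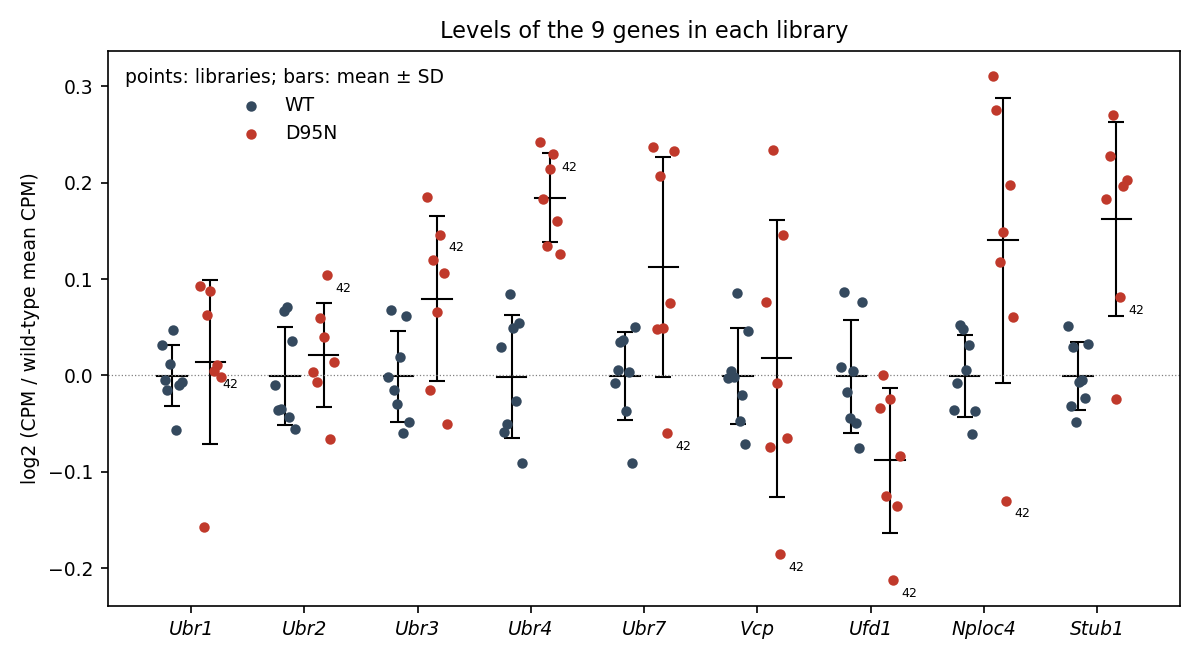
Level of each of the 9 genes as log2 of CPM over the wild-type mean CPM in the 8 wild-type and 7 D95N libraries; points are libraries, bars mark the mean with 1 SD, and animal 42 of D95N is marked. Ubr4 is the gene whose D95N points, from 216 to 234 CPM, all lie above the wild-type points, and the D95N points of Vcp reach from 76.4 to 102 CPM.

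Vcp itself did not pass the test. Its wild-type values were 82.7, 86.7 and 92.1 CPM (lowest, median, highest) and its D95N values 76.4, 86.3 and 102 CPM. The D95N range enclosed the wild-type range, with animal 4 at the top and animal 42 at the bottom. The log2 fold change was 0.02 ± 0.05 (SE), with a 95% interval from -0.08 to 0.13 (edgeR, adjusted p = 0.753). The exons of Vcp share 7.26% of their length with 1700022I11Rik on the opposite strand. The fold change of Vcp took the opposite sign without animal 4 of D95N (-0.01) and with library totals (-0.01).

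Nploc4, one subunit of the adaptor that hands ubiquitylated proteins to VCP, was at 72.3, 75.3 and 78.2 CPM (lowest, median, highest) in wild type. In D95N it was at 68.9, 83.6 and 93.5 CPM. In D95N, 6 libraries lay above every wild-type library and the 1 remaining, animal 42, lay below them all. The means were 83.4 ± 8.25 CPM (SD, n = 7) and 75.4 ± 2.20 CPM (SD, n = 8), and the log2 fold change came to 0.15 ± 0.05 (SE), with adjusted p = 0.0420 in edgeR. This call is close to the threshold. It was kept in 4 of the 15 fits that left out 1 library, and without animal 42 of D95N the log2 fold change was 0.19 (edgeR, adjusted p = 0.00142). It was lost without animal 4, 21, 28, 41 or 44 of D95N, and without animal 8, 11, 16, 30, 32 or 43 of wild type, with adjusted p up to 0.0921. It was kept in 4 of 10 other settings, library totals (log2 fold change 0.11, adjusted p = 0.0816) being among those without it.

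Ufd1, the other subunit of the adaptor, was at 70.5, 74.0 and 79.0 CPM (lowest, median, highest) in wild type and at 64.1, 70.1 and 74.4 CPM in D95N. In D95N, 4 libraries lay below every wild-type library. Its exons share 4.82% of their length with Cdc45 on the opposite strand, which was higher in D95N at 2.39 against 1.84 CPM (edgeR, adjusted p = 0.0354). The log2 fold change of -0.09 ± 0.04 (SE) missed the threshold (edgeR, adjusted p = 0.0918). It passed as lower with library totals (log2 fold change -0.12, adjusted p = 0.0200) and with upper-quartile factors (-0.11, adjusted p = 0.0290), scalings under which 29.0% and 28.5% of genes passed.

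Because Ufd1 and Nploc4 work as a heterodimer, their ratio was taken within each library, where the scaling of libraries cancels. Counts of Nploc4 per count of Ufd1 were 0.937, 1.02 and 1.08 (lowest, median, highest) in wild type and 1.07, 1.20 and 1.29 in D95N. In D95N, 6 libraries exceeded the wild-type range, and animal 42 lay within it. The ratio was 1.17-fold higher in D95N, a log2 difference of 0.23 (exact permutation test, two-sided, p = 0.000311; 0.00155 after adjustment over the 5 ratios tested). Leaving out 1 library at a time kept the difference between 0.21 and 0.25. With per-library correction for GC content and length, a step chosen after seeing the data, it was 0.17 (exact permutation test, two-sided, p = 0.00218).

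The other 4 ratios did not pass after adjustment. Nploc4 over Vcp differed by 0.12 on the log2 scale (exact permutation test, two-sided, p = 0.0440, adjusted p = 0.11). Its unadjusted p ran from 0.00133 without animal 4 of D95N to 0.0979 without animal 28 of D95N, and was above 0.05 in 9 of 15 such comparisons. Ufd1 over Vcp differed by -0.11 (exact permutation test, two-sided, p = 0.11, adjusted p = 0.137). Ubr4 over its partner Kcmf1 differed by 0.08 (exact permutation test, two-sided, p = 0.0912, adjusted p = 0.137), both transcripts having risen. With the GC and length correction that difference was 0.0049 (exact permutation test, two-sided, p = 0.893). Ubr2 over Ubr1 differed by 0.01 (exact permutation test, two-sided, p = 0.835), and its mean was 1.12 in D95N and 1.11 in wild type.

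**Figure D2:**
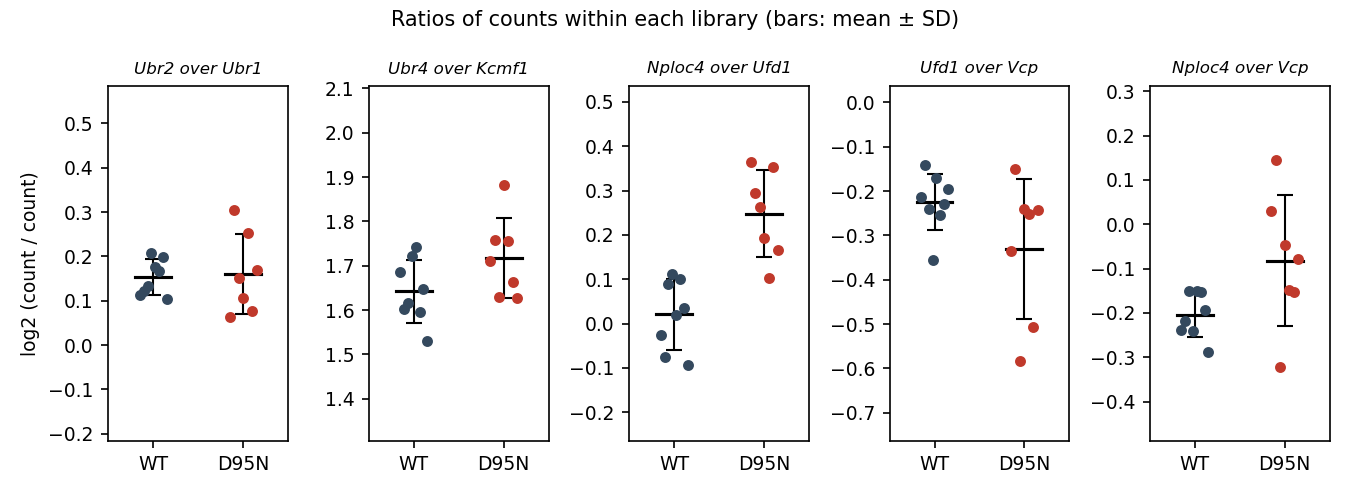
Log2 ratio of counts between pairs of genes within each library, each panel spanning the same log2 range, for wild type and D95N, 1 panel per ratio; points are libraries and bars mark the mean with 1 SD. The mean of Nploc4 over Ufd1 is 0.23 higher in D95N on this scale, and 6 of its 7 D95N points lie above the wild-type points.

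Stub1 was at 115, 118 and 123 CPM (lowest, median, highest) in wild type and at 117, 136 and 143 CPM in D95N. Animal 41 of D95N lay within the wild-type range at 117 CPM, and the other 6 D95N libraries exceeded it. The means were 133 ± 8.99 CPM (SD, n = 7) and 119 ± 2.89 CPM (SD, n = 8), a log2 difference of 0.17 ± 0.04 (SE), with adjusted p = 0.00503 in edgeR. The call was kept in 15 of 15 fits without 1 library, and was lost with the correction for GC content and length, where the log2 fold change fell to 0.05 (edgeR, adjusted p = 0.337). The exons of Stub1 hold 60.8% G and C, the highest share among the 9 genes. Its gene (ENSMUSG00000039615, chromosome 17 from 25830505 to 25833404, minus strand) shares 1084 bases, 42.3% of its exonic length, with Jmjd8 on the opposite strand. Jmjd8 moved the other way, with a wild-type mean of 32.8 ± 1.57 CPM (SD, n = 8) and a D95N mean of 28.9 ± 1.13 CPM (SD, n = 7), a log2 difference of -0.19 ± 0.04 (SE), with adjusted p = 0.00259 in edgeR.

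The blood and meningeal markers, several of them lower in D95N, were entered as scores. Scores and genotype therefore overlap, and this fit cannot tell their parts in a change apart. With both scores as covariates 0.0801% of all genes passed in edgeR, and none of the 9 did. At an unadjusted p under 0.05, 1 was higher and 1 lower, and the share of all genes at that threshold was not computed. The log2 fold change of Ubr4 was as large as before, at 0.18, with a standard error that rose from 0.03 to 0.06 (edgeR, adjusted p = 0.276). Stub1 was at 0.11 ± 0.07 (SE; edgeR, adjusted p = 0.545), and Nploc4 turned to -0.07 ± 0.07 (SE; edgeR, adjusted p = 0.729). Ufd1 was at -0.23 ± 0.06 (SE; edgeR, adjusted p = 0.171). With oligodendrocyte, choroid plexus and striatum scores instead, 24.5% of genes passed, with Ubr4 and Stub1 among them, and Nploc4 stood at 0.17 (edgeR, adjusted p = 0.0575). With limma-voom 26.2% of genes passed, and Nploc4 missed the threshold there too (adjusted p = 0.0537). The part of neuron content in these levels was not tested.

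**Figure D3:**
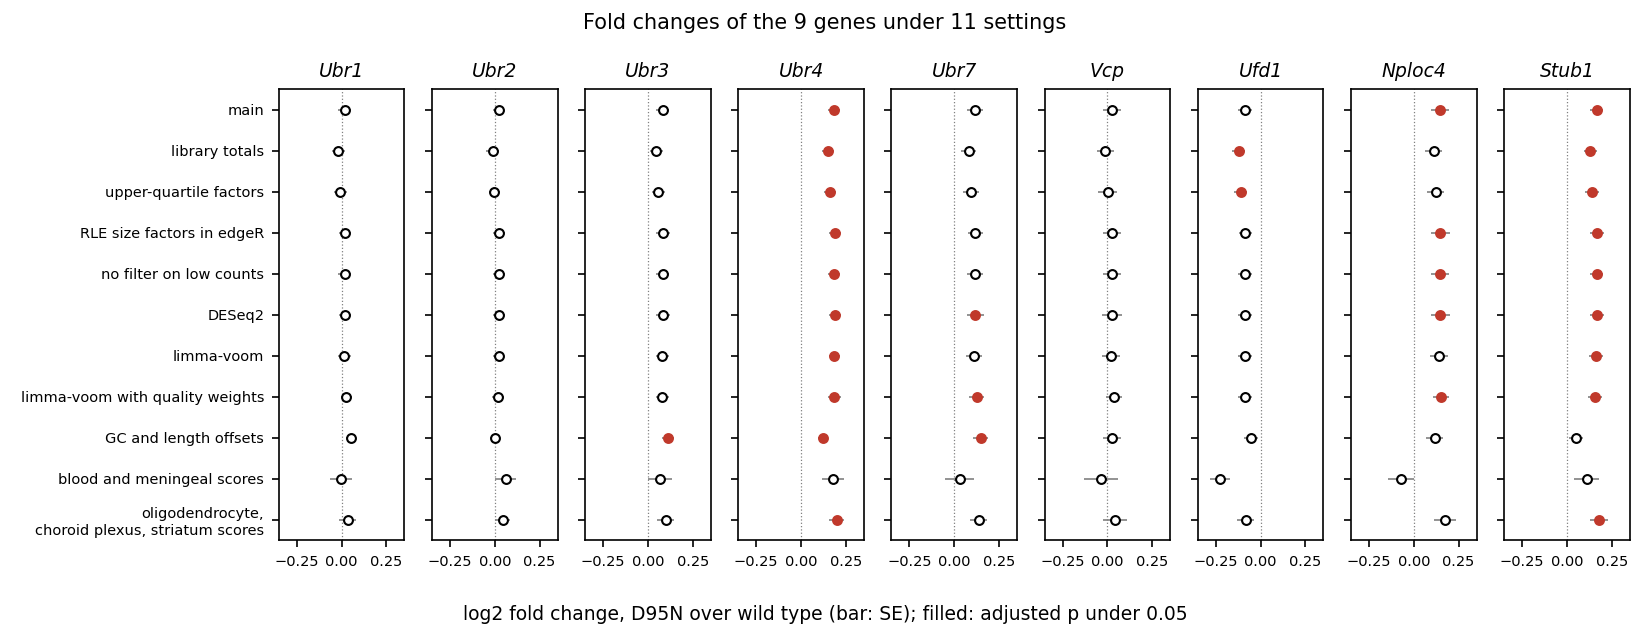
Log2 fold change of each of the 9 genes, D95N over wild type, under the main fit and each other way of processing; filled points passed the threshold, open points did not, and bars are SE. Ubr4 runs from 0.12 to 0.20 and is filled in all settings but the blood and meningeal scores, and Nploc4 crosses to -0.07 with blood and meningeal scores.

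The spread between D95N libraries exceeded that between wild-type libraries for 8 of the 9 genes, Ubr4 being the exception, and for 81.3% of all genes tested. Animal 42 was the lowest D95N library for 4 genes, Nploc4, Vcp, Ubr7 and Ufd1, and the highest for Ubr2, at 97.3 CPM.

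Compared per kilobase of exon, wild-type levels fell in the order Stub1 (46.4 CPM per kilobase), Ubr3 (28.1), Vcp (17.9), Ufd1 (17.1), Nploc4 (15.8), Ubr7 (14.6), Ubr4, Ubr2 (9.23) and Ubr1 (8.23). Ubr4 ran from 10.3 to 13.01 CPM per kilobase over the 15 libraries. Across those libraries the ranges of Vcp and Ufd1, of Ufd1 and Nploc4, and of Nploc4 and Ubr7 overlapped, while the other neighbours in this order did not. Ubr4, which had the smallest p of the 9, was thus among the 3 lowest of the 9 per length. Ufd1 exceeded Nploc4 per kilobase in 8 of 8 wild-type libraries and in 1 of 7 D95N libraries, that of animal 42, with D95N means of 16.1 for Ufd1 and 17.5 for Nploc4.

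The transcripts whose profile over the 15 libraries was most like that of each member were sought among 11605 genes that averaged 5 CPM or more. For Ubr4 they were Prrc2c (Pearson r = 0.934, Spearman rho = 0.932) and Dgki (r = 0.933, rho = 0.925). After the genotype means were removed these r were 0.718 and 0.700, the lowest among the pairs listed here. For Stub1 they were Ndufc2, a subunit of respiratory complex I (r = 0.959, rho = 0.946), and the ribosomal protein gene Rplp0 (r = 0.944, rho = 0.864). For Nploc4 they were Agfg2 (r = 0.957, rho = 0.914) and Gprc5c (r = 0.939, rho = 0.929). Ufd1 was closest to Ilf2 (r = 0.872, rho = 0.811) and Tbpl1 (r = 0.863, rho = 0.821), and Vcp to Cat, which encodes catalase (r = 0.914, rho = 0.832), and Ddah1 (r = 0.910, rho = 0.857). Ubr7 and Ubr3 were each closest to a gene of an aminoacyl-tRNA synthetase, Gars (r = 0.939, rho = 0.868) and Nars (r = 0.841, rho = 0.793), with Tspyl1 (r = 0.938, rho = 0.875) next for Ubr7. Ubr1 was closest to Ubxn7, a VCP cofactor (r = 0.863, rho = 0.693), and to Parg (r = 0.853, rho = 0.632), and without animal 28 of D95N these r were 0.650 and 0.707. Ubr2 was closest to Dock9 (r = 0.769, rho = 0.782) and Gm10010 (r = 0.768, rho = 0.718). These are the highest of many correlations over the same libraries, which share depth and genotype, and are given as a description.

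Among 16 other genes of the N-degron pathway, 3 rose and 1 fell, with a median log2 fold change of 0.03. The counts of the 6 related lists stand beside 15.2% of all genes tested that rose and 11.6% that fell. Nothing about a list is read from its count. Maea, a subunit of the GID/CTLH ligase, rose by 1.12-fold (edgeR, adjusted p = 0.00601), and Kcmf1 by 1.08-fold (adjusted p = 0.0165, or 0.0703 with library totals). Gid4, the substrate receptor of the same ligase, was at 0.906-fold (adjusted p = 0.0346), a call lost in 8 of 15 fits that left out 1 library.

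Of 15 genes whose proteins, or fragments cut from them, are reported substrates of the pathway, 6 rose and 1 fell, with a median of 0.10. The shares over all genes tested were 15.2% higher and 11.6% lower. Epha4, an ephrin receptor, fell to 0.778-fold (edgeR, adjusted p = 0.000247), with D95N at 162 to 199.9 CPM and wild type at 219 to 256 CPM. Limk1, a kinase that acts on cofilin, rose by 1.20-fold (adjusted p = 0.000270), with D95N at 77.1 to 87.8 CPM and wild type at 63.7 to 71.5 CPM. Rgs4, a regulator of G protein signalling whose amino-terminal cysteine makes it a classical substrate, rose by 1.34-fold (adjusted p = 0.00443), and the receptor tyrosine kinase gene Met by 1.89-fold (adjusted p = 0.00348) from 5.47 CPM in wild type. Transcript levels do not measure how fast these proteins are degraded.

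Ubiquitin reaches these ligases through E1 and E2 enzymes. Of 28 such genes 27 were tested, of which 5 rose and 1 fell (median 0.06), and the counts were 3 and 3 with library totals and 8 and 1 with the GC and length correction. Ube2r2 rose by 1.13-fold (edgeR, adjusted p = 0.00191), with all 7 D95N libraries above all wild-type libraries, as was seen for 1.81% of all genes tested. Ube2n, which builds ubiquitin chains used in signalling and DNA repair, fell to 0.863-fold (adjusted p = 0.00580), with D95N at 86.1 to 115.3 CPM and wild type at 115.4 to 126 CPM. Ube2o rose by 1.11-fold (adjusted p = 0.00331), a call lost with the GC and length correction (log2 fold change 0.067, adjusted p = 0.111), and Ube2e3 by 1.13-fold (adjusted p = 0.0199).

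Of 27 other VCP cofactors 3 rose and 1 fell, with a median of 0.04. With library totals the counts were 3 and 4. Plaa, which binds ubiquitin and VCP, rose by 1.26-fold, its wild-type mean being 43.4 ± 2.14 CPM (SD, n = 8) and its D95N mean 54.6 ± 5.65 CPM (SD, n = 7; edgeR, adjusted p = 0.000781). Vcpip1, a deubiquitinase that binds VCP, rose by 1.20-fold (edgeR, adjusted p = 0.00163). For it 6 D95N libraries lay above every wild-type library, and animal 28 lay below them all, at 114.8 against 116.5 CPM. Ube4b, a U-box ligase that extends ubiquitin chains, rose by 1.10-fold (edgeR, adjusted p = 0.00899). Faf1 was at 0.917-fold (adjusted p = 0.0472), a call lost in 12 of 15 fits that left out 1 library.

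In ER-associated degradation, where VCP draws proteins out of the membrane, 2 of 22 genes rose and 2 fell (median 0.02; 1 and 3 with library totals). Sel1l, a scaffold of the Hrd1 ligase, rose by 1.07-fold (edgeR, adjusted p = 0.0172) but did not pass with library totals or upper-quartile factors. Get4 rose by 1.14-fold (adjusted p = 0.0175). The membrane ligase gene March6 fell to 0.930-fold (adjusted p = 0.0218), and Selenos, which recruits VCP to the membrane, was at 0.925-fold (adjusted p = 0.0393), a call lost in 9 of 15 fits that left out 1 library.

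Of 21 chaperones and cochaperones that work with Stub1, 7 rose and none fell (median 0.07; 2 were lower at an unadjusted p under 0.05). With library totals 5 of the 21 rose. The shares over all genes tested, in the main fit, were 15.2% higher and 11.6% lower. Bag1, a nucleotide exchange factor of Hsp70 that binds Stub1, rose by 1.20-fold with 7 of 7 D95N libraries above the wild-type range, as for 1.81% of all genes tested. Its wild-type mean was 107 ± 2.96 CPM (SD, n = 8) and its D95N mean 128 ± 11.7 CPM (SD, n = 7; edgeR, adjusted p = 0.000974). Stip1, which links Hsp70 to Hsp90, rose by 1.09-fold (adjusted p = 0.00450), and Hspbp1, an inhibitor of Stub1, by 1.11-fold (adjusted p = 0.0126), a call lost with the GC and length correction. Hspa1b was 1.49-fold higher (adjusted p = 0.00503) at 8.13 against 5.45 CPM, and is uncertain because Hspa1a is a near-identical copy. None of the 6 lists had a called gene with the blood and meningeal scores as covariates.

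**Figure D4:**
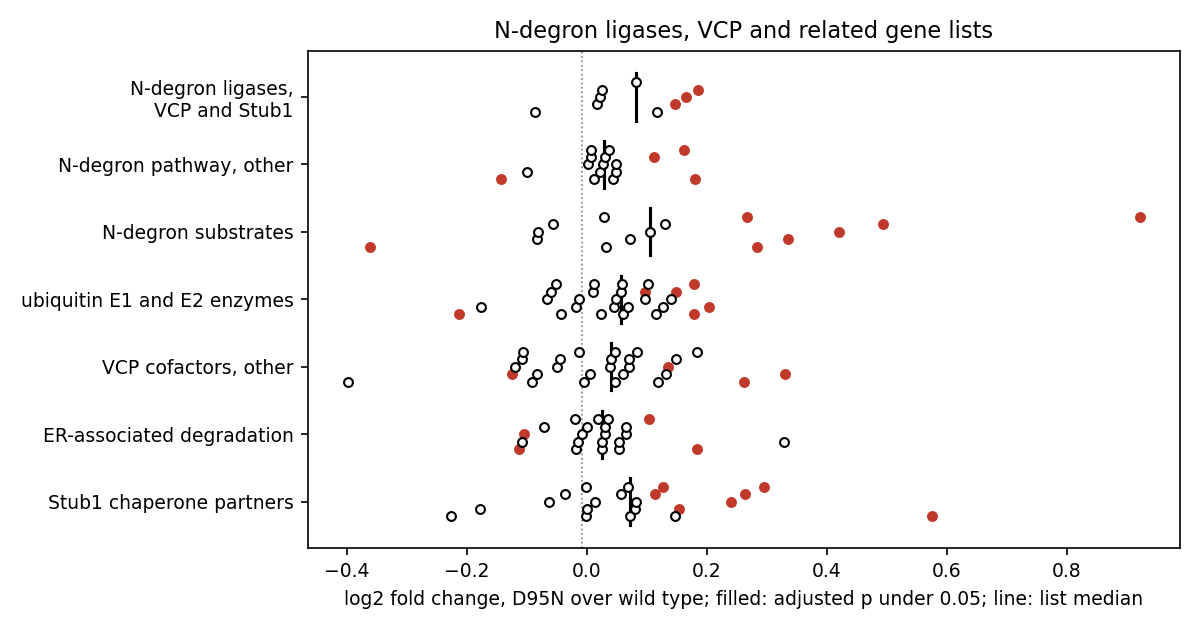
Log2 fold change, D95N over wild type, of every tested gene in the 9-gene group and the 6 related lists; filled points passed the threshold and open points did not, black lines mark each list's median and the dotted line the median of all tested genes. The medians run from 0.02 for ER-associated degradation to 0.10 for N-degron substrates.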

How the data were processed

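RNA was measured by sequencing in 15 cortex libraries, 7 D95N and 8 wild type, grouped by the genotype label. The values are raw read counts per gene, deposited by the authors as 1 table per sample. The authors used STAR, featureCounts and GRCm38, per the submitters' processing notes. Not given in the sources used here are versions, annotation, strand setting and multi-mapping. Of 22524 identifiers, 22214 matched GENCODE M21.

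The 9 genes, the related lists and the markers were chosen with earlier results of these data known. Analyses used R 4.3.3, edgeR 4.0.16, limma 3.58.1, DESeq2 1.42.0 and Python 3.11.15. Genotypes were compared by the quasi-likelihood test of edgeR over all genes, with TMM factors, filterByExpr and Benjamini-Hochberg adjustment at 0.05. It was tried on simulated data with equal spread in both genotypes and planted fold changes larger than those of Ubr4, Stub1 and Nploc4. That trial does not show how calls of their size fare here. CPM were computed from the counts with TMM factors, and per-kilobase levels used the exonic length. P-values set the genotype difference against the spread between these mice, and litter was not modelled. Count ratios were compared by exact permutation tests over 6435 regroupings, for which the smallest possible p is 0.000155. Genes named are the 9, up to 4 called genes of smallest p per list, the ratio denominators and the 2 most alike genes per member; some of these are not reported here. Jmjd8, Gm20604, Emc1, Cdc45 and 1700022I11Rik were named for their overlap with members, after their values were seen. Alternatives covered scaling, the filter, the test, GC content and length, tissue scores and each library left out.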

Additional observations from a re-analysis of the deposited data

Results flagged for a closer look

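Ubr1 stood at 73.0 CPM in animal 28 of D95N, apart from the 6 other D95N libraries, which lay between 81.3 and 86.8 CPM. This was the 1 library that stood apart by Dixon's test among the 30 sets of values examined (the 9 genes, the 5 ratios and a library measure in each genotype). Chance alone sets a library apart in about 1 of 20 such sets. Without this library the log2 fold change of Ubr1 was 0.04 (edgeR, adjusted p = 0.239), and it remained uncalled.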

How the results depend on the processing

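The number of animals limits precision here, and every member had at least 1193 counts in each library. No paired analysis was possible because the litter of each mouse is not given, and the tests treat the mice as independent. Ubr4 passed in 9 of 10 alternatives and in 15 of 15 fits without 1 library, Stub1 in 8 and 15, and Nploc4 in 4 and 4. The cause of each loss below was not tested.

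With library totals the log2 fold changes were -0.018 for Ubr1, -0.012 for Ubr2, -0.012 for Vcp, -0.12 for Ufd1 (called) and 0.11 for Nploc4 (not called), and 1 of the 9 was called lower. The calls then moved to 2 lower among other N-degron genes, 2 lower among substrates, 3 higher and 3 lower among E1 and E2 enzymes, 4 lower among VCP cofactors and 1 higher in ER-associated degradation. Over all genes that scaling called 1808 higher and 2536 lower, upper-quartile factors 1926 and 2351, and TMM 2272 and 1744. With upper-quartile factors Ubr1 stood at -0.0069, Ubr2 at -0.0015, Ufd1 at -0.11 (called) and Nploc4 at 0.12 (not called), 1 of the 9 was called lower, and the list calls moved to 2 lower substrates, 3 higher E1 and E2 enzymes, 3 lower VCP cofactors and 1 higher ER-associated degradation gene. With size factors from DESeq2 in edgeR and with no filter, 0 VCP cofactors were called lower, and with no filter 1 ER-associated degradation gene was. DESeq2 called 2 VCP cofactors lower and Ubr7 higher, at 0.12. With limma-voom Nploc4 was not called, at 0.14. With quality weights Ubr7 was called at 0.13, and 2 substrates and 1 chaperone partner were called lower. With the GC and length correction Ubr3 (0.11) and Ubr7 (0.15) were called, Nploc4 (0.12) and Stub1 (0.052) were not, and the list calls moved to 6 higher and 0 lower other N-degron genes, 8 higher E1 and E2 enzymes and 5 higher VCP cofactors.

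With blood and meningeal scores 12 genes in all were called, 5 higher and 7 lower, with 0 of the 9 and 0 of each list in either direction. At an unadjusted p under 0.05, 1 of the 9 was higher and 1 lower in edgeR, with no share over all genes computed at that threshold. Ubr1 (-0.0027), Vcp (-0.034) and Nploc4 (-0.072) reversed, and Ubr4 (0.18) and Stub1 (0.11) were not called. With the regional scores Nploc4 (0.17) was not called, and the list calls moved to 0 lower other N-degron genes, 2 lower substrates, 3 higher E1 and E2 enzymes, 0 lower VCP cofactors, 1 higher and 0 lower ER-associated degradation genes and 1 lower chaperone partner. With the ratio corrected for GC content and length, chosen after seeing the data, Ubr2 over Ubr1 was -0.048, Ubr4 over Kcmf1 0.0049 and Nploc4 over Vcp 0.090 (exact permutation test, two-sided, p = 0.0872).

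Without 1 library at a time, 3263 to 4976 genes were called, 1952 to 2694 higher and 1305 to 2282 lower, with 2 to 4 of the 9 called, all higher. Lists ranged, higher and lower, over 3 to 3 and 0 to 2 for other N-degron genes, 4 to 7 and 1 to 2 for substrates, 3 to 7 and 1 to 2 for E1 and E2 enzymes, 3 to 4 and 0 to 5 for VCP cofactors, 2 to 3 and 1 to 3 for ER-associated degradation and 5 to 8 and 0 to 1 for chaperone partners. Log2 fold changes ranged over 0.0054 to 0.043 for Ubr1, 0.0087 to 0.036 for Ubr2, 0.066 to 0.10 for Ubr3, 0.17 to 0.20 for Ubr4, 0.096 to 0.14 for Ubr7, -0.013 to 0.058 for Vcp, -0.10 to -0.065 for Ufd1, 0.12 to 0.19 for Nploc4 and 0.15 to 0.20 for Stub1. Ubr3 was called without animal 50 of D95N, and Ubr7 without animal 41 or 42. The log2 ratio differences ranged over -0.016 to 0.024 for Ubr2 over Ubr1, 0.048 to 0.090 for Ubr4 over Kcmf1, 0.21 to 0.25 for Nploc4 over Ufd1, -0.14 to -0.063 for Ufd1 over Vcp and 0.084 to 0.16 for Nploc4 over Vcp. Ubr2 over Ubr1 turned negative without animal 28 (-0.016) or 42 (-0.0079) of D95N, and Vcp without animal 4 (-0.013).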

Other observations

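The promoter windows of the other 5 members differed in composition. Ubr7 held 67.2% G and C, Ubr3 60.8%, Ubr1 59.2%, Vcp 54.8% and Ubr2 51.2%, beside the median of 52.4% over all RefSeq windows. The ratio of observed to expected CpG ran from 0.685 in Ubr2 to 0.983 in Ubr4, all above the median of 0.373. Vcp held 4 matches to the letters CCAAT, Ubr7 held 2, and the other 7 members held none, while 33.8% of all windows held at least 1. Of the 9, Vcp alone held TGACNNNGC, the antioxidant response element core, found in 10.2% of windows. No member held AAGATGG, a YY1 motif found in 4.49% of windows, or TGATGNAA, found in 3.45%.

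Within genotypes, pairs of members were loosely related over the 15 libraries. After the genotype means were removed, Pearson's r was highest for Ubr2 with Ubr4 (0.646) and for Ubr7 with Vcp (0.605), and lowest for Ubr2 with Nploc4 (-0.467) and for Ubr4 with Stub1 (-0.442). The adaptor pair Ufd1 and Nploc4 stood at 0.543. These are descriptions over libraries that share their scaling.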
